A study of Mus musculus with 6 samples.

Results

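The transcripts of 10 regulators of oxidative metabolism were followed in mouse cardiomyocytes: the peroxisome proliferator-activated receptors Ppara, Ppard and Pparg, the coactivators Ppargc1a and Ppargc1b (PGC-1α and PGC-1β), the estrogen-related receptors Esrra, Esrrb and Esrrg, the retinoid X receptor Rxra and the mitochondrial transcription factor Tfam. They were taken by gene symbol, each as 1 of the 23337 genes in the count table, and all 10 passed the filter on low counts that left 14587 genes for testing. Wild-type mice received an adeno-associated virus (AAV) on postnatal day 1, and at 4 weeks of age heart muscle cells were freed by Langendorff perfusion, in which the heart is perfused through its aorta, and then sorted by fluorescence. The virus carried GFP, a fluorescent protein that served as control (AAV-GFP), XBP1S, the spliced and active form of XBP1 (AAV-XBP1S), or ATF6N, the nuclear fragment of ATF6 (AAV-ATF6N), with 2 libraries of polyadenylated RNA in each of the 3 groups. All groups therefore share the wild-type background, the virus injection, the age and the isolation, and differ in the delivered gene. The sources used here give neither the promoter, serotype and dose of the virus nor the mouse strain.

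Both delivered proteins act in the nucleus, in the unfolded protein response with which cells answer an overload of the endoplasmic reticulum. PPARs are nuclear receptors that bind fatty acids and their derivatives and, paired with a retinoid X receptor, switch on genes for fatty acid uptake and oxidation. PGC-1 proteins bind no DNA themselves but dock on PPARs, ERRs and other factors and raise their activity, and the ERRs, which have no known natural hormone, drive genes of the respiratory chain and the tricarboxylic acid cycle. In the heart, which burns mostly fatty acids after birth, this circuit sets much of the capacity for oxidative metabolism.

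Promoter sequences were read for the members because both delivered factors bind DNA. RefSeq windows on GRCm38.p6, from 250 bases before to 50 bases after an annotated start, were found for 9 of the 10 members, all but Ppargc1b, in 16 windows. A pair of windows is shown, each with the motif that it holds in capitals. The window of Ppargc1a (chr5:51567676-51567975, minus strand) holds at bases 199 to 206 the reverse complement of TGACGTGG, the element known to be bound by ATF6 and XBP1, which also contains the shorter TGACGT core. The window of Ppara (chr15:85735526-85735825, plus strand) holds at bases 220 to 229 the palindrome bound by NRF1, a factor for nuclear genes of mitochondria, which is GCGCA followed by its reverse complement.
Ppargc1a: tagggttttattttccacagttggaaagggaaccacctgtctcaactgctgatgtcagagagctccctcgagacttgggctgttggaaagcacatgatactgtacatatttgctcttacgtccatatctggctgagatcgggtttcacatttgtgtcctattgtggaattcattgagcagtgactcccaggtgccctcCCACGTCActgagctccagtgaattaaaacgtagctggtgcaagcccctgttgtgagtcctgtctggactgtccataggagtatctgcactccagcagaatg
Ppara: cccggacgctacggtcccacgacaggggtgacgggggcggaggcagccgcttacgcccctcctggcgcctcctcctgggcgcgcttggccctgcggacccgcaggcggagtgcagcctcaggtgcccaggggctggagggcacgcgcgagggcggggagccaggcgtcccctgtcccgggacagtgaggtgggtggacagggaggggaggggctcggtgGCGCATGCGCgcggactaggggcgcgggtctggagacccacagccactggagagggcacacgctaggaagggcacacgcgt
Searched on both strands, TGACGTGG occurred in 0.676% of the 32851 RefSeq windows searched, TGACGT in 7.51% and the NRF1 palindrome in 0.971%. The annotated start in the Ppargc1a window lies 13804 bases upstream of the first base of Ppargc1a in the count table, so an RNA begun there would be counted only where its exons are those of the table. Ppargc1a had no other window, so the sequence around its first counted base was not searched for any motif. In the Ppara window the annotated start lies inside the counted gene. The nuclear receptor core AGGTCA, which also ends the ERR element, in 16.3% of all windows, occurred in 2 windows of Pparg and in 1 of Rxra, where it is present on both strands. None of the 16 windows held the ERR element TCAAGGTCA (0.423% of all windows), the PPAR element, a direct repeat of AGGTCA with 1 free base between (0.0396%), the cyclic AMP element TGACGTCA (1.79%) or the endoplasmic reticulum stress elements, which are CCAAT and CCACG with 9 free bases between (0.119%) and ATTGG and CCACG with 1 (0.0365%). These matches describe letters in a window.

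The libraries held 67702482 to 112049342 counts. Values are given as CPM, read counts scaled to library sizes adjusted by TMM, and as mean ± SD of n = 2 libraries. Whether the libraries of a group came from separate animals is not stated in the labels, so p-values measure a spread between libraries that may be technical. The first principal component, with 43.9% of the variance, set AAV-GFP replicate 1 apart, and Rn45s, which encodes the precursor of ribosomal RNA, took 0.337% of its counts and 0.0319% to 0.130% of those of the others. Of the delivered genes, Xbp1 had 98.0 and 115 CPM with AAV-GFP against 160.4 and 166 CPM with AAV-XBP1S, and Atf6 44.9 and 70.6 CPM with AAV-GFP against 162 and 158 CPM with AAV-ATF6N, and neither passed the test (adjusted p = 0.307 and 0.126). Xbp1 was also at 145 and 152 CPM with AAV-ATF6N, a log2 difference of -0.14 from AAV-XBP1S (adjusted p = 0.802), and Atf6 at 77.0 and 111 CPM with AAV-XBP1S. The Y-linked Eif2s3y had 1629 and 979 counts in AAV-GFP, 0 in both AAV-XBP1S libraries and 3595 and 2824 in AAV-ATF6N, while Xist, transcribed from the inactive X chromosome, had 2424 and 562, 4014 and 1650, and 16 and 6 counts. The sex of the animals and the delivered gene therefore cannot be told apart in any result below. The 11 cardiomyocyte markers were all present and summed to 127696 to 129379 CPM in AAV-GFP, 102107 to 108222 in AAV-XBP1S and 147838 to 150090 in AAV-ATF6N, so the sorted cells carry the markers of their label. The 8 endothelial markers, none at 0, summed to 1102 to 1266, 1486 to 1683 and 672 to 723 CPM, and the 8 fibroblast markers, none at 0, to 468 to 605, 813 to 967 and 795 to 830.4 CPM.

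Within a library, levels of different genes were compared per gene length, as TPM, in which each library sums to the same total. Esrra was the most abundant regulator in AAV-GFP at 88.3 ± 9.51 TPM, ahead of Ppargc1a at 50.7 ± 19.7 and Ppargc1b at 30.3 ± 7.97 TPM. The same 3 genes led in AAV-XBP1S, with Esrra at 56.8 ± 2.40, Ppargc1a at 42.3 ± 11.9 and Ppargc1b at 26.5 ± 4.71 TPM. In AAV-ATF6N, Ppargc1a came first at 95.4 ± 0.241 TPM and Esrra second at 76.4 ± 1.49 TPM, followed by Ppargc1b at 40.2 ± 0.0856 TPM. The ranges of these leading genes did not overlap within any group. In the middle of the order, Tfam, Rxra and Ppara could not be ranked in AAV-GFP, since the ranges of neighbours overlapped between 10.8 and 23.6 TPM. In AAV-XBP1S the same held for Tfam, Pparg, Rxra, Esrrg and Ppara in turn, and in AAV-ATF6N for Rxra and Ppara. The wide range of Rxra in AAV-GFP also covered that of Pparg and reached that of Esrrg, so Rxra could not be ranked against them either. Esrrb, at 2.86 to 3.60 TPM, and Ppard, at 0.485 to 1.69 TPM, were the lowest 2 members in every library. Differences between groups were read from CPM. Between AAV-XBP1S and AAV-GFP, 32.7% of all genes had higher and only 5.54% lower TPM ranges that did not overlap, while on the CPM scale the shares were 19.1% and 16.8%.

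**Figure D1:**
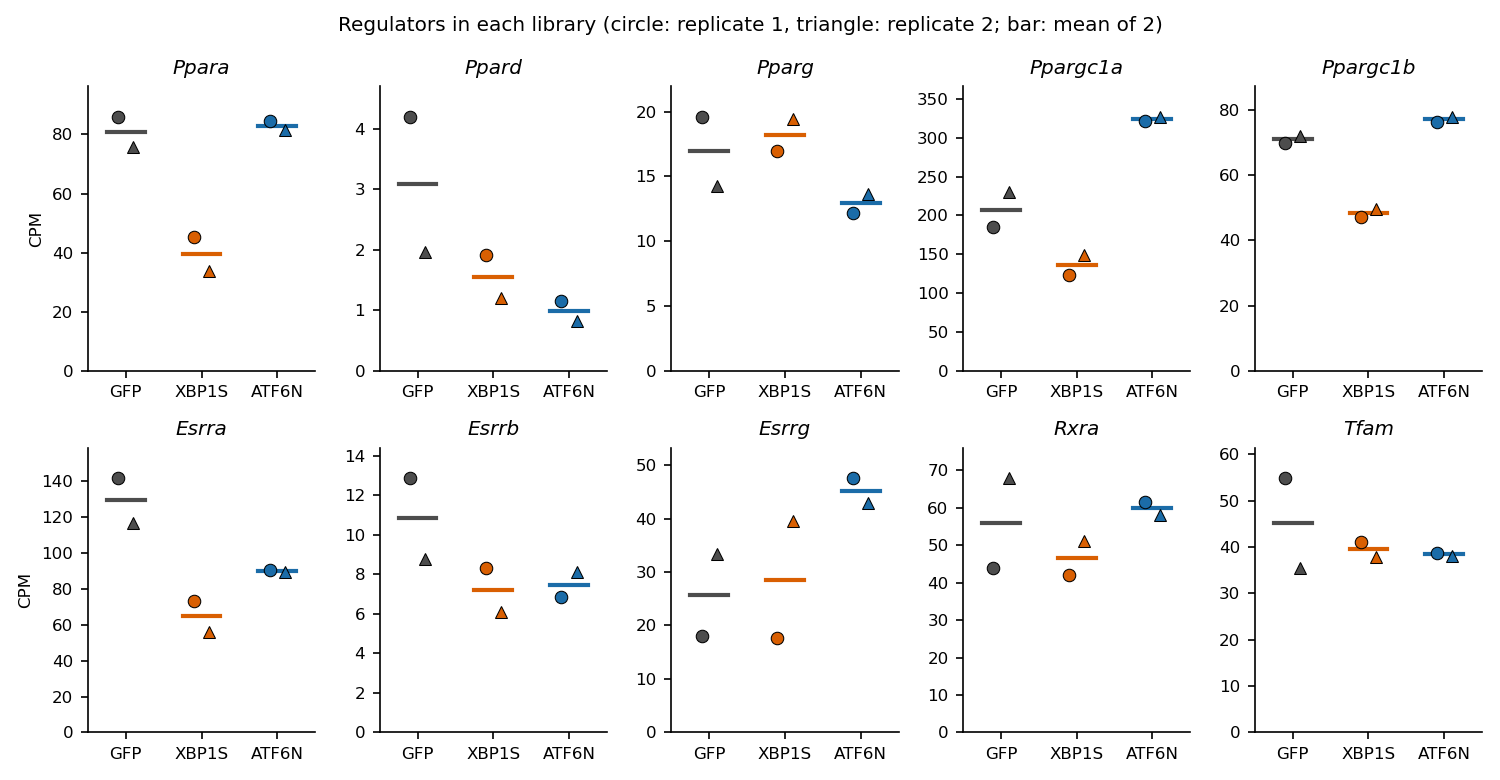
Level of each regulator in CPM (vertical axes, from 0, a scale of its own for each gene) in the 2 libraries of AAV-GFP, AAV-XBP1S and AAV-ATF6N. Circles are replicate 1, triangles replicate 2 and bars the mean; Ppara, Esrra, Ppargc1a and Ppargc1b are lowest in both AAV-XBP1S libraries, and Ppargc1a is highest in both AAV-ATF6N libraries, at 322 and 327 CPM.

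Across the 3 comparisons, none of the 10 regulators passed edgeR's quasi-likelihood test at an adjusted p of 0.05, and the test called few genes of any kind: 0.315% of all genes between AAV-XBP1S and AAV-GFP, 0.514% between AAV-ATF6N and AAV-GFP and 0.226% between AAV-ATF6N and AAV-XBP1S. At an unadjusted p under 0.05, 4 members were lower in AAV-XBP1S than in AAV-GFP and 0 higher, where 11.6% of all genes passed in either direction and 5.21% were lower. Between AAV-ATF6N and AAV-GFP, 1 member was higher and 1 lower at that level, against 13.5% of all genes in either direction, 6.92% higher and 6.54% lower. In the direct comparison 3 members were higher in AAV-ATF6N and 0 lower, against 13.2% of all genes in either direction and 5.69% higher. DESeq2, the other tool run, called 2 members lower in AAV-XBP1S (3.17% of all genes called, 1.27% lower), 0 members in AAV-ATF6N against AAV-GFP (3.76%) and 2 members higher in AAV-ATF6N than in AAV-XBP1S (5.39%, 2.05% higher). In the authors' deposited table of each comparison with AAV-GFP, 0 members were past an adjusted p of 0.05, where 1.31% of all genes passed for AAV-XBP1S and 2.71% for AAV-ATF6N.

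Ranges of the groups in CPM were compared as well. Of the 10 regulators, 6 had both AAV-XBP1S libraries below both AAV-GFP libraries and 0 had them above, where 35.9% of all genes did not overlap and 16.8% were lower and 19.1% higher. On the TPM scale 4 were below and 2 above, where 5.54% of all genes were lower and 32.7% higher. For AAV-ATF6N against AAV-GFP, 3 were above and 4 below, where 54.5% of all genes did not overlap, 27.9% higher and 26.7% lower. In the direct comparison 6 were above in AAV-ATF6N and 2 below, where 56.9% of all genes did not overlap with 30.1% higher and 26.8% lower. Shares of that size among all genes leave little to read from the count of members in the comparisons with AAV-ATF6N.

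**Figure D2:**
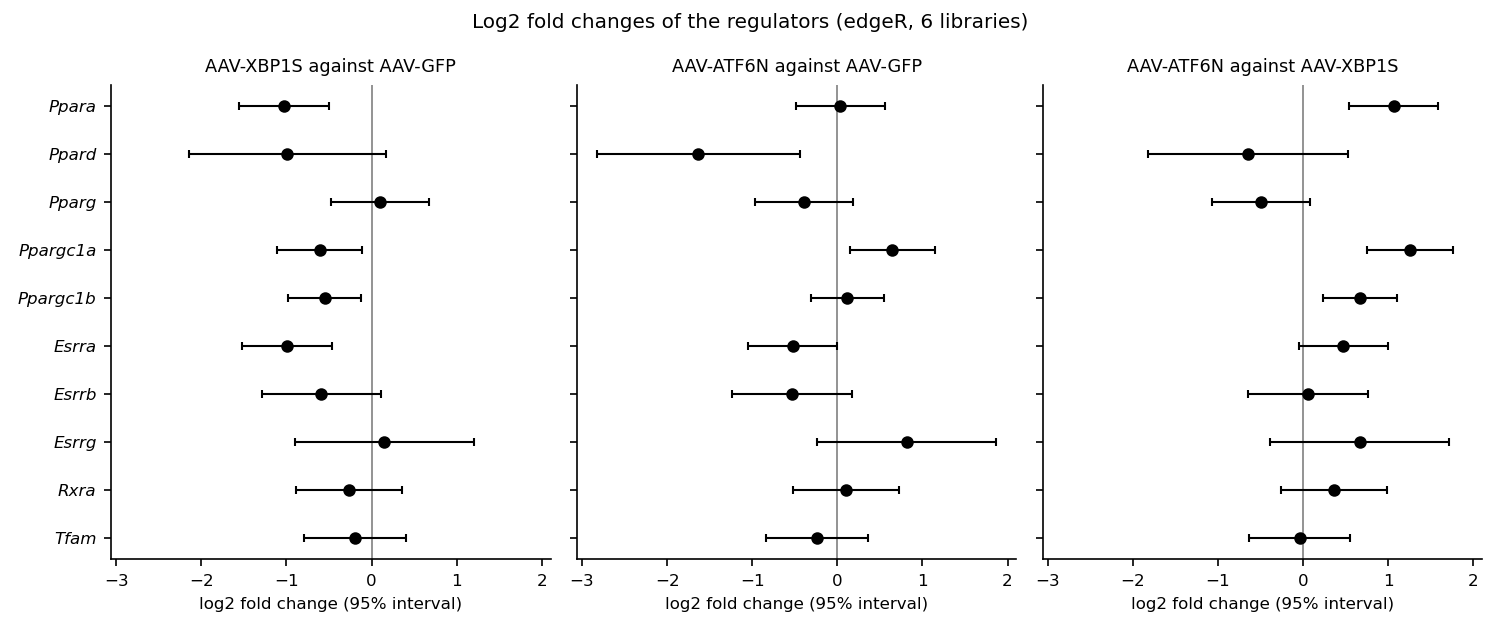
Log2 fold change (horizontal axes) of each regulator in the 3 comparisons, from edgeR on all 6 libraries, with bars for the 95% interval of the fit. The intervals of Ppara, Esrra, Ppargc1a and Ppargc1b lie below 0 for AAV-XBP1S against AAV-GFP, those of Ppara, Ppargc1a and Ppargc1b above 0 for AAV-ATF6N against AAV-XBP1S, and no member passed after adjustment over all genes.

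Ppara, the PPAR most tied to fatty acid oxidation in heart and liver (chr15:85735564-85806851, 9 merged exons), had 86.1 and 75.7 CPM in AAV-GFP, 45.2 and 34.0 CPM in AAV-XBP1S and 84.5 and 81.4 CPM in AAV-ATF6N. Both AAV-XBP1S libraries were lower than all other libraries, and AAV-GFP and AAV-ATF6N overlapped. The level in AAV-XBP1S was 2.04-fold lower than in AAV-GFP, a log2 difference of -1.03 ± 0.22 (SE) with a 95% interval from -1.56 to -0.51, and it missed the edgeR threshold (adjusted p = 0.169) but not that of DESeq2 (adjusted p = 0.00659). Against AAV-XBP1S it was 2.09-fold higher in AAV-ATF6N, a log2 difference of 1.07 ± 0.22 (adjusted p = 0.107). That difference passed in 6 of the 12 alternative settings, among them the fit without AAV-GFP replicate 1 (adjusted p = 0.0373) and without AAV-GFP replicate 2 (adjusted p = 0.0366). It did not pass without a library of the compared groups, with an adjusted p of 0.382 and 0.373 without AAV-XBP1S replicate 1 and 2, and of 0.836 and 0.837 without AAV-ATF6N replicate 1 and 2. Between AAV-ATF6N and AAV-GFP the log2 difference was 0.04 ± 0.22, with an interval from -0.48 to 0.55. In bulk RNA of this kind, fewer cells of a type and less RNA per cell cannot be told apart. The summed cardiomyocyte markers were also lowest in AAV-XBP1S, and their part in these differences was not tested.

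Pparg, best known as the master regulator of fat cells and also expressed in endothelium (chr6:115361221-115490401, 9 merged exons), had 19.6 and 14.3 CPM in AAV-GFP, 17.0 and 19.4 CPM in AAV-XBP1S and 12.2 and 13.7 CPM in AAV-ATF6N. In CPM, AAV-GFP and AAV-XBP1S overlapped, and both AAV-ATF6N libraries were below the other 4. In TPM, AAV-ATF6N at 11.8 and 13.0 overlapped AAV-GFP at 12.8 and 13.1, and AAV-XBP1S lay above both groups, at 15.3 and 21.5. The log2 difference of AAV-ATF6N from AAV-XBP1S was -0.49 ± 0.24 (adjusted p = 0.450), and that from AAV-GFP -0.39 ± 0.24 (adjusted p = 0.439). The summed endothelial markers were likewise lowest in AAV-ATF6N and highest in AAV-XBP1S, and their part in the level of Pparg was not tested. The 6 adipocyte markers, 2 of them at 0 in all libraries, summed to at most 0.0739 CPM in any library.

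Ppard, the PPAR expressed in most tissues and active in muscle and heart (chr17:28232754-28301469, 8 merged exons), was the least abundant member at 4.21 and 1.96 CPM in AAV-GFP, 1.91 and 1.20 CPM in AAV-XBP1S and 1.16 and 0.827 CPM in AAV-ATF6N. The 3 groups did not overlap, although AAV-GFP replicate 2 and AAV-XBP1S replicate 1 lay close together. Its counts ran from 54 to 414 per library. The log2 difference of AAV-ATF6N from AAV-GFP, -1.63 ± 0.50, was the largest of any member in any comparison and missed the threshold (adjusted p = 0.289). Without AAV-GFP replicate 2 it was -2.07 with an adjusted p of 0.0344, in a fit that called 3052 genes in all, and without AAV-GFP replicate 1 it was -0.98 with an adjusted p of 0.530. For AAV-XBP1S against AAV-GFP the value was -0.99 ± 0.49 (adjusted p = 0.501), and it was -0.34 without AAV-GFP replicate 1 and -1.41 without AAV-GFP replicate 2.

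Ppargc1a encodes PGC-1α, the coactivator that exercise, cold and fasting induce and that raises mitochondrial content (chr5:51454249-51553921, 13 merged exons). It had 185 and 229.9 CPM in AAV-GFP, 123 and 149.5 CPM in AAV-XBP1S and 322 and 327 CPM in AAV-ATF6N. The 3 groups did not overlap on the CPM scale, with AAV-XBP1S lowest and AAV-ATF6N highest. The direct difference, 2.38-fold higher in AAV-ATF6N than in AAV-XBP1S, had a log2 value of 1.25 ± 0.21 with an interval from 0.75 to 1.76 and the smallest adjusted p of any member, 0.0689. It passed in 7 of the 12 alternative settings, with an adjusted p of 9.24e-05 under DESeq2, 0.0193 without AAV-GFP replicate 1 and 0.0233 without AAV-GFP replicate 2. It did not pass without AAV-XBP1S replicate 1 (0.452) or 2 (0.328), nor without AAV-ATF6N replicate 1 (0.754) or 2 (0.837). The summed cardiomyocyte markers followed the same order of groups. Taken singly, 5 of the 11 were above 0 for AAV-ATF6N against AAV-GFP (median log2 fold change -0.07). In the direct comparison 8 of the 11 were above 0 in AAV-ATF6N (median 0.10). The part of these markers in the level of Ppargc1a was not tested.

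Against AAV-GFP, Ppargc1a differed by 0.65 ± 0.21 on the log2 scale in AAV-ATF6N (adjusted p = 0.307) and by -0.61 ± 0.21 in AAV-XBP1S (adjusted p = 0.359). The former was 0.82 without AAV-GFP replicate 2 (adjusted p = 0.0439) and 0.50 without AAV-GFP replicate 1 (adjusted p = 0.435). An offset for gene length moved it to 0.30 (adjusted p = 0.218) and moved the latter to -0.75 (adjusted p = 0.0263). The difference between AAV-XBP1S and AAV-GFP depended on the scale, since the TPM of Ppargc1a, 36.8 and 64.6 in AAV-GFP and 33.9 and 50.7 in AAV-XBP1S, overlapped. Its promoter window was the only 1 of the 16 with TGACGTGG, and binding there was not measured.

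Ppargc1b, which encodes the related coactivator PGC-1β (chr18:61298136-61400431, 12 merged exons), had 69.9 and 72.0 CPM in AAV-GFP, 47.3 and 49.5 CPM in AAV-XBP1S and 76.2 and 77.9 CPM in AAV-ATF6N. On the CPM scale the groups did not overlap, and the libraries of each group lay close together. In TPM, AAV-GFP at 24.7 and 36.0 overlapped AAV-XBP1S at 23.1 and 29.8. Its log2 differences were -0.55 ± 0.18 for AAV-XBP1S against AAV-GFP (adjusted p = 0.335), 0.12 ± 0.18 for AAV-ATF6N against AAV-GFP (adjusted p = 0.730) and 0.67 ± 0.18 for AAV-ATF6N against AAV-XBP1S (adjusted p = 0.180). With the offset for gene length, the value for AAV-ATF6N against AAV-GFP turned to -0.11.

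Esrra, the ERR most abundant in heart and itself a known target of PGC-1α (chr19:6910977-6921808, 7 merged exons), had 142 and 117 CPM in AAV-GFP, 73.3 and 56.1 CPM in AAV-XBP1S and 90.2 and 89.5 CPM in AAV-ATF6N. The 3 groups did not overlap, and both treated groups were below AAV-GFP. The level in AAV-XBP1S was 2.00-fold lower than in AAV-GFP, a log2 difference of -0.997 ± 0.222 with an interval from -1.53 to -0.47, and missed the edgeR threshold (adjusted p = 0.185). It passed under DESeq2 (adjusted p = 0.0110) and with the offset for gene length (adjusted p = 0.0470). In AAV-ATF6N, where Ppargc1a was highest, Esrra differed from AAV-GFP by -0.52 ± 0.22 (adjusted p = 0.371) and from AAV-XBP1S by 0.47 ± 0.22 (adjusted p = 0.427). Esrra shares 50 of its 2242 exon bases with Trmt112 on the opposite strand, and the library kits named in the labels do not mark strand.

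Esrrg, the ERR known to be needed for the postnatal switch to oxidative metabolism in mouse heart (chr1:187609006-188214884, 9 merged exons), varied widely within the first 2 groups. It had 18.0 and 33.5 CPM in AAV-GFP, 17.6 and 39.5 CPM in AAV-XBP1S and 47.6 and 42.9 CPM in AAV-ATF6N. AAV-GFP and AAV-XBP1S overlapped, and replicate 1 was the low library of both groups. In CPM both AAV-ATF6N libraries were above the other 4, while in TPM, at 16.4 and 14.5, they overlapped AAV-XBP1S at 5.63 and 15.6. The log2 differences of AAV-ATF6N were 0.81 ± 0.44 from AAV-GFP (adjusted p = 0.409) and 0.66 ± 0.44 from AAV-XBP1S (adjusted p = 0.575). When single libraries were left out, the former ran from 0.43 to 1.34 and the latter from 0.15 to 1.36. Esrrb, better known from pluripotent cells (chr12:86361117-86521628, 8 merged exons), had 12.9 and 8.78 CPM in AAV-GFP, 8.31 and 6.07 CPM in AAV-XBP1S and 6.85 and 8.11 CPM in AAV-ATF6N. Both treated groups were below AAV-GFP and overlapped each other. Its differences were -0.59 ± 0.29 for AAV-XBP1S (adjusted p = 0.505) and -0.53 ± 0.29 for AAV-ATF6N (adjusted p = 0.412).

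Rxra, the partner with which PPARs bind DNA (chr2:27677201-27763319, 10 merged exons), had 43.9 and 68.0 CPM in AAV-GFP, 42.0 and 51.2 CPM in AAV-XBP1S and 61.6 and 58.2 CPM in AAV-ATF6N. AAV-GFP overlapped both treated groups. Its log2 differences from AAV-GFP were -0.26 ± 0.26 in AAV-XBP1S, with an interval from -0.89 to 0.36, and 0.10 ± 0.26 in AAV-ATF6N, with an interval from -0.52 to 0.72. Tfam, whose protein packages mitochondrial DNA and acts in its transcription (chr10:71225477-71238044, 7 merged exons), had 54.8 and 35.5 CPM in AAV-GFP, 41.1 and 37.9 CPM in AAV-XBP1S and 38.7 and 38.1 CPM in AAV-ATF6N. The AAV-GFP libraries spanned all others. The log2 differences of Tfam, -0.19 ± 0.25, -0.23 ± 0.25 and -0.04 ± 0.25 in the 3 comparisons, were within their errors, and the interval of the last ran from -0.64 to 0.56.

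Since members of a family bind the same kind of DNA element or partner, their shares within the family were computed from TPM. Ppara made up 50.5% and 56.3% of PPAR transcripts in AAV-GFP, 39.6% and 30.8% with AAV-XBP1S and 63.3% and 60.2% with AAV-ATF6N. Pparg took 43.7% and 40.3%, 56.5% and 66.7%, and 34.7% and 38.3%, so it was the most abundant PPAR in both AAV-XBP1S libraries, and Ppara in the other 4. Ppargc1a made up 59.8% and 64.3% of PGC-1 transcripts in AAV-GFP, 59.4% and 63.0% with AAV-XBP1S and 70.4% and 70.3% with AAV-ATF6N. Esrra held 74.9% to 91.3% of ERR transcripts in every library, and the share of Esrrg ran from 4.66% in AAV-GFP replicate 1 to 21.2% in AAV-XBP1S replicate 2. With 2 libraries a group these shares were not tested. Ppara has 7528 bases in the count table and Pparg 1984. For AAV-ATF6N against AAV-GFP, their log2 differences were 0.04 and -0.39, and with the offset for gene length -0.32 and -0.24. The higher Ppara share in AAV-ATF6N therefore depends on how gene length is handled. For AAV-XBP1S against AAV-GFP, the values with that offset were -1.17 for Ppara and 0.18 for Pparg.

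**Figure D3:**
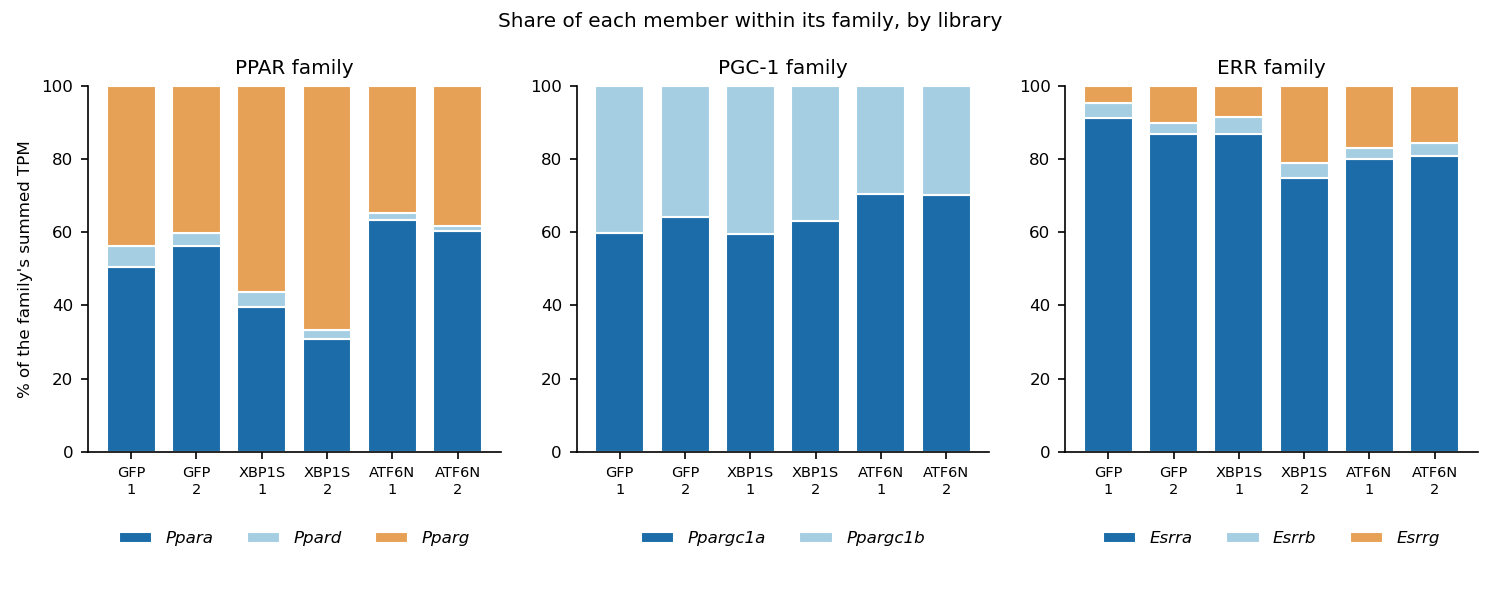
Share of each member in the summed TPM of its family (vertical axes, percent), as stacked bars for each of the 6 libraries. Pparg exceeds Ppara in both AAV-XBP1S libraries only, the Ppargc1a share is 70.4% and 70.3% in AAV-ATF6N, and Esrra is the main ERR throughout.

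Genes that work with the regulators were read as 5 lists, for which counts and medians are given. Of all 14587 genes, 7450 were below 0 for AAV-XBP1S against AAV-GFP, 7481 for AAV-ATF6N against AAV-GFP and 7359 for AAV-ATF6N against AAV-XBP1S, where 7226 were above 0. The median log2 fold change of all genes was -0.01, -0.02 and -0.01 in the 3 comparisons. Among 21 partners, coactivators and corepressors, 0 passed in any comparison, and the medians were -0.03 for AAV-XBP1S against AAV-GFP, 0.49 for AAV-ATF6N against AAV-GFP and 0.25 between the treated groups. With the offset for gene length the first 2 of these medians were -0.16 and 0.24, and without AAV-GFP replicate 1 they were -0.14 and 0.26. Rxrb, another retinoid X receptor, was at 74.8 and 69.3 CPM in AAV-GFP, 48.4 and 41.0 with AAV-XBP1S and 44.3 and 46.7 with AAV-ATF6N, and the heart and muscle isoform gene Rxrg at 158 and 147, 117 and 106, and 115 and 118 CPM. Both were lower in all 4 treated libraries than in AAV-GFP, with log2 differences of -0.39 to -0.69 and adjusted p from 0.274 to 0.423. Lpin1, which encodes lipin 1, a lipid phosphatase and coactivator of PGC-1α and PPARα, was at 144 and 219.6 CPM in AAV-GFP, 137 and 158 with AAV-XBP1S and 282 and 258 with AAV-ATF6N. Perm1, a muscle regulator acting with PGC-1 and ERRs, had 289 and 595 CPM in the AAV-GFP libraries, whose spread covered the AAV-XBP1S values. The corepressor gene Ncor1 differed by 0.02, 0.00 and -0.01, and Nrip1, the corepressor RIP140, by 0.45, 0.60 and 0.15 on the log2 scale, none past the threshold.

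Of 21 upstream regulators, 1 fell in AAV-XBP1S against AAV-GFP and 0 passed in the other comparisons, with medians of -0.07, 0.27 and 0.36. The median for AAV-ATF6N against AAV-GFP was 0.07 with the offset for gene length and 0.12 without AAV-GFP replicate 1, which also moved that for AAV-XBP1S against AAV-GFP to -0.31. The gene that fell was Klf15, a glucocorticoid-responsive factor that promotes cardiac fatty acid use. It had 162 and 191 CPM in AAV-GFP, 57.1 and 52.1 CPM in AAV-XBP1S and 129 and 136 CPM in AAV-ATF6N. Both AAV-XBP1S libraries were far below the other 4, and the log2 fold change was -1.70 ± 0.20 (adjusted p = 0.0322). The size stayed between -1.81 and -1.55 when single libraries were left out, but the call was lost without AAV-XBP1S replicate 1 (adjusted p = 0.369) or 2 (0.450), without AAV-ATF6N replicate 1 (0.163) or 2 (0.166), and in a fit of the 2 groups alone (0.161). Prkaa2, the catalytic subunit of AMP-activated kinase common in muscle, had 62.3 and 121 CPM in AAV-GFP, 83.9 and 139 with AAV-XBP1S and 166 and 165 with AAV-ATF6N, with adjusted p from 0.378 to 0.784.

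In the list of 33 PPAR targets, 0 passed for AAV-XBP1S against AAV-GFP. Still, 29 of the 33 had values below 0, 22 were lower at an unadjusted p under 0.05 where 5.21% of all genes were, and the median was -0.52. Both counts include Cpt1b, whose level is uncertain in this table, as given below. Without AAV-GFP replicate 1, which stood apart, 30 were below 0, 19 were lower at that level, 2 fell after adjustment and the median was -0.53. In that fit 1125 of the 14587 genes were lower at an unadjusted p under 0.05 and 38 fell after adjustment. With the offset for gene length 8 of the 33 fell, where 164 of the 14587 genes did. Beside this, 9 of the 11 cardiomyocyte markers were below 0 (median -0.21), and above 0 were all 8 endothelial markers (median 0.49), all 8 fibroblast markers (0.73), all 8 markers of smooth muscle and pericytes (0.51) and 7 of the 8 of macrophages and leukocytes (0.51). None of these markers passed, and their part in the PPAR targets was not tested. Ucp3, a mitochondrial carrier of muscle, had 61.0 and 95.7 CPM in AAV-GFP against 31.8 and 31.3 CPM in AAV-XBP1S (log2 difference -1.31, adjusted p = 0.135). Ech1, of unsaturated fatty acid oxidation, was at 3689.6 and 2675 against 1634 and 1206 CPM (-1.16, adjusted p = 0.167), and Hadha, a subunit of the trifunctional protein, at 735 and 777 against 471 and 483 CPM (-0.67, adjusted p = 0.243). Acadm, which starts the oxidation of medium chains, differed by -0.29 and the fatty acid binding protein gene Fabp3 by -0.84. Of the fatty acid transporter gene Cd36, the lipid droplet gene Plin2 and Angptl4, an inhibitor of lipoprotein lipase, the values were 0.13, 0.17 and 0.24, with adjusted p of at least 0.737.

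For AAV-ATF6N against AAV-GFP, 1 of the 33 PPAR targets fell, where 24 of the 14587 genes did, 23 were below 0 and the median was -0.25. At an unadjusted p under 0.05, 9 of the 33 were lower and 0 higher, where 6.54% of all genes were lower and 6.92% higher. The gene that fell was Ucp2, a mitochondrial carrier expressed in many cell types, with 177 and 175 CPM in AAV-GFP, 114 and 96.1 CPM in AAV-XBP1S and 63.8 and 69.0 CPM in AAV-ATF6N. Its log2 fold change was -1.40 ± 0.20 (adjusted p = 0.0462), and the 3 groups did not overlap. The size stayed between -1.46 and -1.35 when single libraries were left out, but the call was lost without AAV-XBP1S replicate 1 (adjusted p = 0.138) or 2 (0.136), without AAV-ATF6N replicate 1 (0.715) or 2 (0.634), and in a fit of the 2 groups alone (0.137). Of the 6 erythroid markers 5 were in the table, 2 of them at 0, and they summed to 277 and 130.4 CPM in AAV-GFP, 106 and 69.7 CPM in AAV-XBP1S and 41.7 and 40.7 CPM in AAV-ATF6N, the order of groups seen for Ucp2. All 3 erythroid markers tested were below 0 for AAV-ATF6N against AAV-GFP (median -2.20) and 1 fell, and the endothelial markers were lowest in AAV-ATF6N too, with 7 of 8 below 0 (median -0.67). Other markers went the other way in that comparison. Above 0 were 6 of 8 of macrophages and leukocytes (median 0.53), 6 of 8 of fibroblasts (0.45) and 5 of 8 of smooth muscle and pericytes (0.30). The part of any of these markers in the level of Ucp2 was not tested. Ech1 differed from AAV-GFP by -1.10 on the log2 scale (adjusted p = 0.166) and Ucp3 by -1.23 (adjusted p = 0.140).

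Between the treated groups, 0 of the 33 PPAR targets passed, 27 had values above 0 in AAV-ATF6N against AAV-XBP1S and the median was 0.21. Pdk4, the kinase that shuts pyruvate dehydrogenase when fatty acids are burned, had 161 and 305 CPM in AAV-GFP, 84.2 and 129 CPM in AAV-XBP1S and 349 and 345 CPM in AAV-ATF6N. Its groups did not overlap, and the log2 difference between AAV-ATF6N and AAV-XBP1S, 1.70, missed the threshold (adjusted p = 0.107). Cpt1b, the mitochondrial entry enzyme for long-chain fatty acids in muscle, is uncertain in this table. It had 31 to 159 counts per library, at most 1.62 CPM, and 94.8% of its exon bases are shared on the same strand with BC090627, which had 0 counts in every library.

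**Figure D4:**
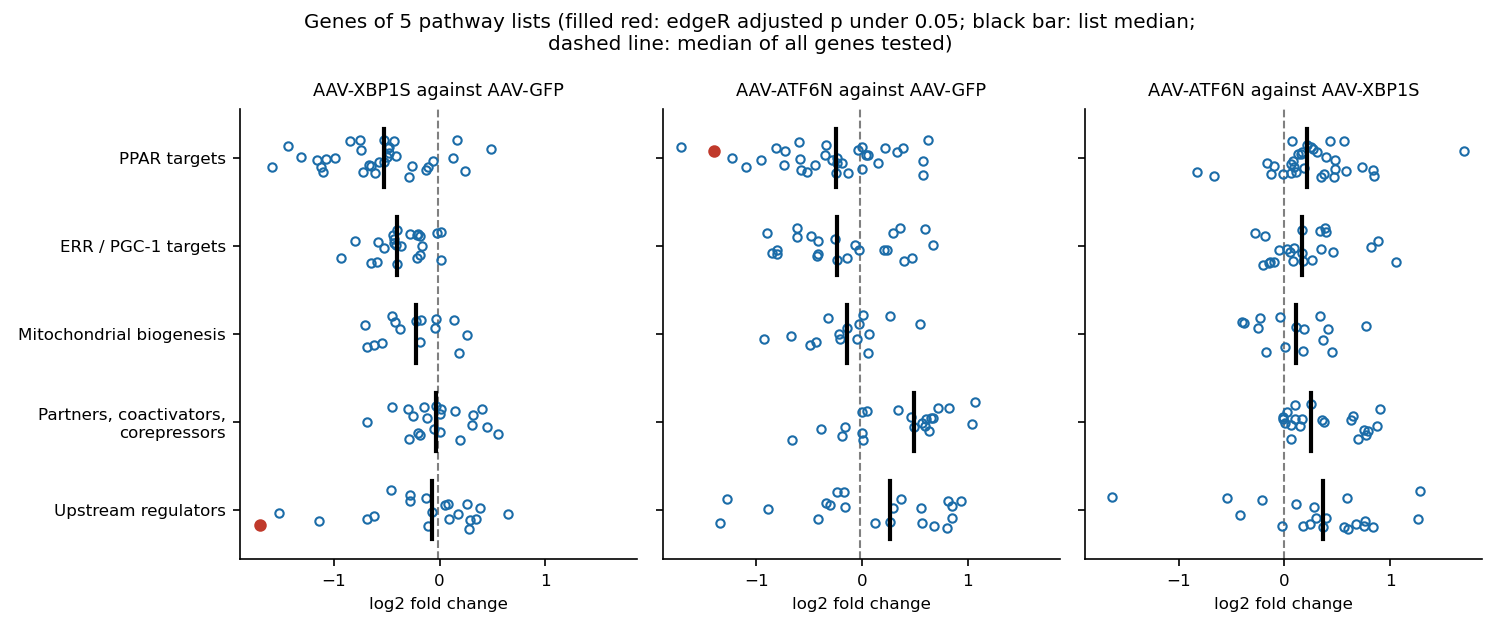
Log2 fold change (horizontal axes) of each gene of the 5 lists in the 3 comparisons, with a black bar at the list median, a dashed line at the median of all genes tested and red points for adjusted p under 0.05. The PPAR targets lie mostly below 0 for AAV-XBP1S against AAV-GFP (median -0.52), and the 2 red points are Klf15 and Ucp2.

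Among 23 targets of ERRs and PGC-1, 0 passed in any comparison, and the medians were -0.40, -0.23 and 0.17. With the offset for gene length the median for AAV-ATF6N against AAV-GFP turned to 0.11, with 13 above and 10 below 0. There 1 gene of the list fell, where 224 of all genes tested passed in either direction. With the same offset, all 23 were below 0 for AAV-XBP1S against AAV-GFP and 2 fell, where 289 of all genes passed in either direction. In the direct comparison 2 rose under this offset, where 606 of all genes passed in either direction. For AAV-XBP1S against AAV-GFP, 21 of the 23 were below 0, but without AAV-GFP replicate 1 only 16 were and the median was -0.22, and the median for AAV-ATF6N against AAV-GFP was then -0.0209. Cycs, which encodes cytochrome c, was at 132 and 73.1 CPM in AAV-GFP, and 73.5 to 78.6 CPM in the 4 treated libraries, so its difference rests on AAV-GFP replicate 1. Idh3a, a tricarboxylic acid cycle subunit, differed by -0.03, 0.23 and 0.26, and Mfn2, which fuses mitochondria, by -0.22, 0.60 and 0.82 on the log2 scale, with adjusted p of at least 0.455. Of 15 genes of mitochondrial biogenesis, 0 passed in any comparison, with medians of -0.22, -0.14 and 0.11. Nrf1 and Gabpa, which drive nuclear genes of mitochondria, differed by -0.18 to 0.55, and the mitochondrial transcription genes Tfb1m, Tfb2m and Polrmt by -0.71 to 0.77. Polg, the mitochondrial DNA polymerase, ran from 41.5 to 94.6 CPM within AAV-GFP alone. Transcripts of the mitochondrial genome were not analysed here.

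The genes most like each member across the 6 libraries were found by the root mean square difference of mean-centred log2 CPM, where 0 would be an identical pattern. The closest of all was Fgf13 to Rxra, at 0.0219, followed by Rbm39 and Hnrnpab to Tfam, at 0.0282 and 0.0287, and Plin5 to Esrra, at 0.0294. Plin5, which coats lipid droplets in oxidative tissue, is also on the list of PPAR targets. For Ppargc1a the 3 closest were D630045J12Rik, Klhl21 and Vegfa, at 0.0727 to 0.0914, and for Ppargc1b they were Trim8, Kcnj12 and Fblim1, at 0.0420 to 0.0523. Ppara was nearest to Ccl9, Trim67 and Atp1a4, at 0.0673 to 0.0855, and Pparg to 4933407H18Rik, Tipin and Ufsp2, at 0.0518 to 0.0692. Esrrb was nearest to Nudt6, Psmd4 and Cyc1, at 0.0449 to 0.0563, and Esrrg to Mib1, Heca and Dcp1a, at 0.0621 to 0.0693. Ppard, the member of lowest count, had the least close neighbours, with Med11 at 0.126 ahead of Usf2. With 6 libraries and 14587 genes to choose from, such likeness is a description.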

How the data were processed

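The authors deposited whole-number read counts per gene for 6 libraries. The submitters' processing notes name STAR, featureCounts and the build mm10. The sources used here give no versions and no strand setting. The kits named in the labels, SMART-Seq v4 and Nextera XT, amplify full-length cDNA without marking strand. The authors' deposited tables for each comparison with AAV-GFP give, per the file headers, a mean normalized signal (counts over size factors), a log2 fold change with its standard error, a Wald statistic, which is a score, and p-values with their adjustment. DESeq2 and DESeq are named in the submitters' processing notes. The number of per-sample columns not used is 0.

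Genes were kept with edgeR's filterByExpr at a count minimum of 10 and tested with edgeR 4.0.16 (R 4.3.3), by TMM scaling and the quasi-likelihood test on all 6 libraries with group as the only term. The residual degrees of freedom were 3 and the prior ones 3.73. Tests were two-sided with Benjamini-Hochberg adjustment over 14587 genes and a threshold of 0.05. The procedure was run on simulated data, and the share of true changes that it called there is not reported here. Standard errors are log2 differences over the square root of F. With 2 libraries against 2, exact permutation gives no two-sided p below 33.3%, so it was not used. CPM use TMM-adjusted library sizes, and TPM use the gene lengths of the count table. Alternatives were DESeq2 1.42.0, DESeq2 size factors in edgeR, no filter, a replicate block, the compared groups alone, an offset fitted by lowess (span 0.3) on gene length, and leaving out each library. In each of the 6 fits that left out a library, a group of 1 is assumed to vary like the others.

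The members and lists were chosen with earlier results of these data known. The genes named were the 10 members, list genes past the threshold, a set of examples named whatever their values, and the 3 nearest genes of each member. Some genes under this rule are not reported here. List counts without single libraries or under other settings were chosen after seeing the data. Plin5 and BC090627 were singled out after their values were seen. Perm1 was matched as 2310042D19Rik through RefSeq synonyms. Promoter windows are from RefSeq, GRCm38.p6, and the windows and motif shares leave out chromosome 18.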

Additional observations from a re-analysis of the deposited data

How the results depend on the processing

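The number of genes past the threshold was 46 for AAV-XBP1S against AAV-GFP, 75 for AAV-ATF6N against AAV-GFP and 33 for AAV-ATF6N against AAV-XBP1S. In the same order, it was 484, 573 and 803 under DESeq2, 233, 348 and 458 with no filter, 289, 224 and 606 with the offset for gene length, 13, 8 and 666 with the 2 compared groups alone, and 46, 76 and 32 with DESeq2 size factors. Leaving out single libraries gave 2 to 242, 4 to 3052 and 1 to 669. The highest of these counts came from the fit in which AAV-GFP replicate 1, the library that stood apart, was the only control. The counts therefore depend on which AAV-GFP library is kept.

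Deviations of same-numbered libraries correlated at 0.379 between AAV-GFP and AAV-XBP1S. The value was -0.0402 between AAV-GFP and AAV-ATF6N and -0.048 between AAV-XBP1S and AAV-ATF6N, so no replicate pattern common to all 3 groups was seen. With 2 libraries a group, the sign of such a value follows from how the libraries are numbered. Whether the numbers mark a shared batch was not tested. With the replicate number as a block, 165, 237 and 356 genes and 0, 0 and 2 of the 10 members passed. The 2 members were Ppara (edgeR adjusted p = 0.0431) and Ppargc1a (0.0252), higher in AAV-ATF6N than in AAV-XBP1S.

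The number of members past the threshold was 0 in each comparison. It was 2 for AAV-XBP1S against AAV-GFP under DESeq2 and with the offset for gene length. For AAV-ATF6N against AAV-XBP1S it was 2 with no filter, under DESeq2 and with the 2 compared groups alone, and 1 with the offset for gene length. Leaving out single libraries gave 0 for AAV-XBP1S against AAV-GFP, 0 to 2 for AAV-ATF6N against AAV-GFP and 0 to 2 for the direct comparison. The cause of these shifts was not tested. Of the single genes, the calls of Klf15 and Ucp2 were lost under 5 settings each, as given with their values.

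With the offset for gene length, the log2 difference turned sign for Ncor1 in AAV-XBP1S against AAV-GFP (-0.16). For AAV-ATF6N against AAV-GFP it did for Ppara (-0.32), Ppargc1b (-0.11), Rxra (-0.21), Ncor1 (-0.29), Nrf1 (-0.30), Tfb1m (0.33), Polrmt (-0.12), Cd36 (-0.0112) and Acadm (0.14), and with DESeq2 size factors for Plin2 (-0.000546). For AAV-ATF6N against AAV-XBP1S it did for Esrrb (-0.17), Nrip1 (-0.00227), Nrf1 (-0.0128), Cd36 (-0.0400) and Cycs (-0.0368). None of these differences passed as first computed. Some values changed sign when 1 library was left out, and their ranges over the 6 such fits follow. For AAV-XBP1S against AAV-GFP these were Pparg (-0.0821 to 0.35), Esrrg (-0.54 to 0.70), Rxra (-0.55 to 0.11), Tfam (-0.45 to 0.15), Ncor1 (-0.18 to 0.27), Perm1 (-0.63 to 0.44), Lpin1 (-0.58 to 0.0600), Prkaa2 (-0.13 to 0.87), Nrf1 (-0.51 to 0.27), Gabpa (-0.48 to 0.65), Tfb1m (-0.11 to 0.58), Tfb2m (-0.17 to 0.12), Polg (-0.66 to 0.56), Cd36 (-0.14 to 0.48), Idh3a (-0.21 to 0.20), Cycs (-0.78 to 0.0464), Mfn2 (-0.70 to 0.53). For AAV-ATF6N against AAV-GFP these were Ppara (-0.0484 to 0.13), Rxra (-0.18 to 0.45), Tfam (-0.51 to 0.11), Ncor1 (-0.21 to 0.26), Nrf1 (-0.32 to 0.43), Tfb1m (-0.35 to 0.35), Tfb2m (-0.0562 to 0.21), Polrmt (-0.36 to 0.66), Polg (-0.21 to 0.98), Cd36 (-0.0477 to 0.55), Plin2 (-0.0765 to 0.0768), Cycs (-0.78 to 0.071). For AAV-ATF6N against AAV-XBP1S these were Esrrb (-0.15 to 0.26), Rxrb (-0.0915 to 0.11), Rxrg (-0.0121 to 0.0895), Ncor1 (-0.13 to 0.0672), Nrip1 (-0.22 to 0.58), Nrf1 (-0.0114 to 0.36), Gabpa (-0.0633 to 1.04), Cd36 (-0.18 to 0.36), Fabp3 (-0.15 to 0.38), Ech1 (-0.14 to 0.26), Cycs (-0.0228 to 0.0549). No alternative moved the median of all genes by over 0.1. Ppard, at 54 to 414 counts, had the widest intervals of the members. Shares within a family have no test with 2 libraries a group.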
